A study of Mus musculus with 18 samples.

Results

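The genes described here encode the proteins of synaptic vesicles and secretory granules, with which neurons and endocrine cells store and release transmitters and peptides. They were chosen by function, with earlier results of these data known. They are 32 of the 18194 mouse genes that have at least 1 probe set of their own on the array. The set holds 4 SNARE proteins, 4 members of the calcium sensor families (among them Syt11, which binds no calcium), 4 priming factors and complexins, 6 vesicle membrane and vesicle-bound proteins, 2 vesicular transporters, 4 proteins of the active zone and of presynaptic adhesion and 5 granule proteins. It also holds the postsynaptic scaffold genes Dlg4 and Homer1 and the growth cone gene Gap43, which are no vesicle or granule genes.

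The study asked which genes respond when neural precursors of the ventral forebrain are treated with an inhibitor of histone deacetylases or with a bone morphogenetic protein. All samples are neurosphere cultures from the lateral and medial ganglionic eminences of E15.5 C57BL/6 J mouse embryos, which were grown for 7 days, dissociated and plated in medium with 1% fetal calf serum and no EGF. Cultures received 50 nM trichostatin A (TSA), 10 ng/ml BMP2 or no agent. RNA was hybridised to 18 Affymetrix Mouse Genome 430 2.0 arrays: 2 control, 2 BMP2 and 2 TSA arrays after 6 h, and 6 control, 2 BMP2 and 4 TSA arrays after 24 h. The labels do not say whether arrays of a group come from separate cultures or embryos, so the spread on which the p-values rest may be technical. The RNA is of whole cultures, in which fewer cells of a type and less RNA per cell cannot be told apart.

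A synaptic vesicle fuses with the plasma membrane when SNARE proteins on the vesicle and on the membrane zip together. Priming factors make the vesicle ready, complexins hold the SNARE complex, and synaptotagmins trigger fusion when calcium enters. Granules with a dense core carry peptides and granins, the acidic proteins from which the core condenses, and they use their own priming factor, Cadps. Cells without synapses can express many of these genes, and several are known targets of the repressor REST, which acts through histone deacetylases.

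Each value is a signal, the brightness of a probe set after quantile normalisation of the 18 arrays, and each gene is given by its brightest probe set. Differences are on the log2 scale after 32 was added to the signal, which understates changes of dim genes. The words rose and fell are used where the Benjamini-Hochberg adjusted p of limma, over all 19498 probe sets tested, was under 0.05. Probe sets were left untested where no group mean reached 100, as too dim. A probe set dim in the controls was thus tested only where a treated group was bright, which left it little room to fall. Of the 32 genes, 26 were tested. Vamp1, Syt4, Doc2b, Slc17a6, Bsn and Rims1 were too dim, with group means from 3.35 for Slc17a6 in the 6 h controls to 95.1 for Rims1 with BMP2 at 24 h. The 32 genes have 77 probe sets, of which 46 were tested.

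The cultures expressed markers of all the lineages that ganglionic eminence precursors form. Each of the 15 neuronal, 13 oligodendrocyte lineage, 10 astrocyte and 9 precursor markers with a probe set reached 100 in some group. The 6 microglial markers and both erythroid markers stayed under 100 throughout, as did 4 of 5 endothelial markers. Arrays of 1 group correlated at 0.908 to 0.988. The arrays fell apart in the signal of Xist, the RNA of the inactive X chromosome. Controls 5 and 6 and both BMP2 arrays of 24 h lay between 703 and 2090, and the 14 other arrays lay between 18.4 and 75.5. The labels name no batch, and all BMP2 arrays of 24 h are on the high side, so members called with BMP2 at 24 h are also given against controls 5 and 6 alone, from a fit with a term for this split, as are the further genes named below. All TSA arrays of 24 h are on the low side, and the same fit sets them against controls 1 to 4.

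In 4 comparisons with the controls of the same time, 20 of the 26 tested genes (76.9%) rose or fell at least once, beside 57.9% of all 10576 tested genes. The members were chosen with earlier results of these data known, so such shares describe the set and are no test of it. BMP2 raised 2 of 26 genes and lowered 0 after 6 h, where 1.15% of all genes rose and 0.634% fell, and the same number of members, 2, had an unadjusted limma p under 0.05. Without either 6 h control or BMP2 6 h replicate 1 the count was 0. After 24 h of BMP2, 9 of 26 rose (34.6%) and 1 fell (3.85%), beside 9.93% and 7.72% of all genes, and the median difference of the 26 genes was 0.57, beside 0.03 for all genes. Against controls 5 and 6 alone, 5 of these 10 passed (Scg2, Cadps, Rab3c, Nrxn2 and Chgb), and without BMP2 24 h replicate 1 or replicate 2 the count was 4. No share of all genes was counted for the fit against controls 5 and 6 alone, here or below. With TSA, 6 rose and 2 fell after 6 h, beside 14.4% and 11.8% of all genes, and 6 rose and 3 fell after 24 h, beside 18.6% and 20.1%. The shares after TSA were thus 23.1% higher at both times, and 7.69% and 11.5% lower. Leaving out any 1 of the control or TSA arrays of 6 h took the 6 h count from 8 to 3 or 4. The medians with TSA were -0.03 after 6 h and -0.02 after 24 h. At 24 h only Snap25 and Syp passed the test with both agents. The comparisons of 1 time share their control arrays, so their values are set side by side and not related to each other.

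**Figure D1:**
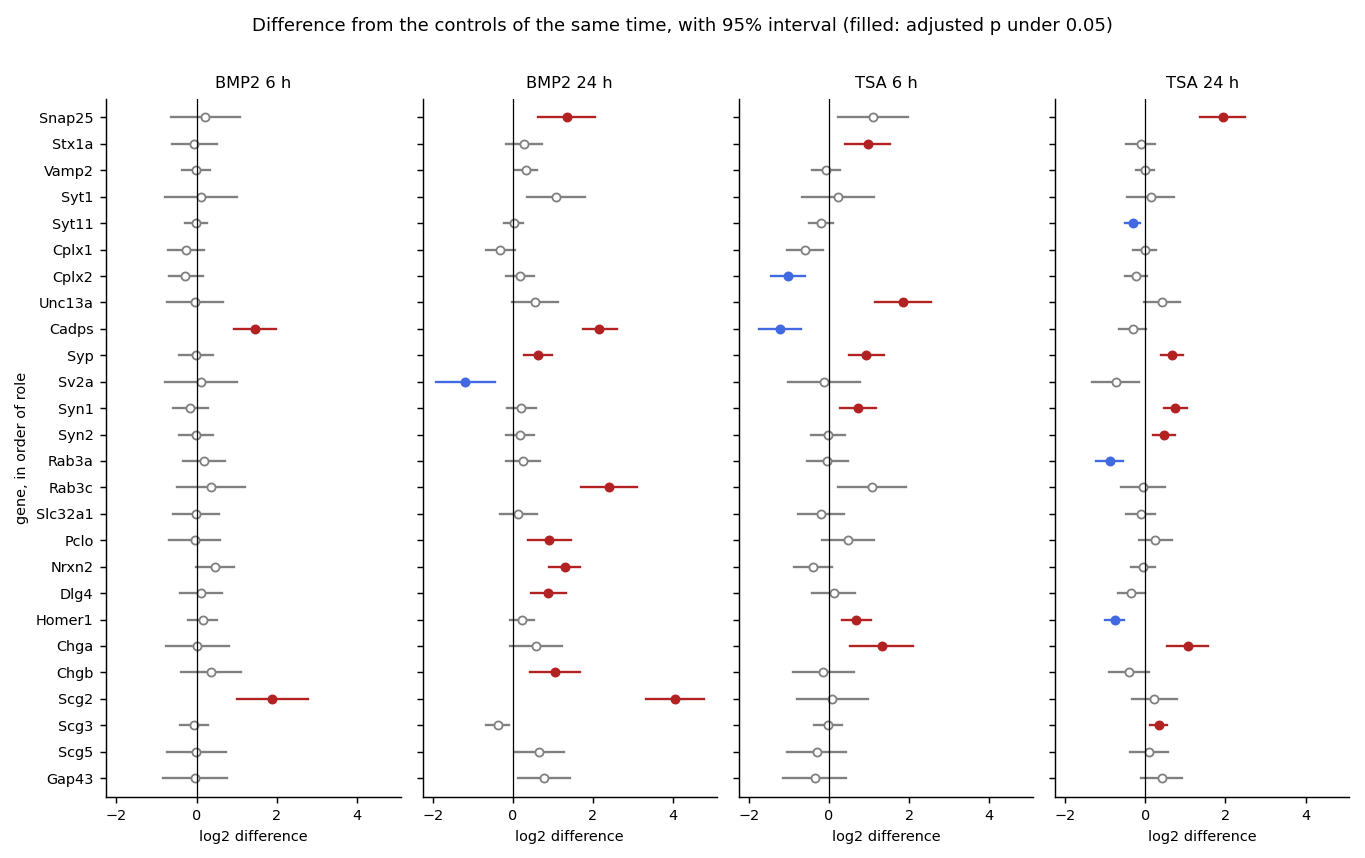
Log2 difference from the controls of the same time (horizontal axis) for the 26 tested genes in order of role (vertical axis), in 4 panels for BMP2 and TSA after 6 h and 24 h. Lines are 95% intervals, and filled symbols mark genes with an adjusted p under 0.05, red for higher and blue for lower. Scg2 lies farthest to the right at BMP2 24 h (4.04), and the priming factor Cadps lies to the right with BMP2 and to the left with TSA.

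The promoters of 6 members are shown first. Scg2, Chgb and Syn1 were chosen, after the search for motifs, because they hold the full cAMP response element (CRE), Chga because it holds the core of that element, and Cadps and Rab3c because they rose with BMP2 and hold neither. They run from 250 bases before to 50 bases after the annotated start, 5′ to 3′ along the gene, from RefSeq on GRCm38.p6. Of the 32 genes, 26 had such a window. Capitals mark the CRE, TGACGTCA, in Scg2, Chgb and Syn1, and in Chga the shorter core CGTCA, read on the opposite strand. In Cadps they mark the letters GGCGCC, and in Rab3c the GC box GGGCGG, read on the opposite strand.
Scg2, chr1:79439977-79440276, minus strand: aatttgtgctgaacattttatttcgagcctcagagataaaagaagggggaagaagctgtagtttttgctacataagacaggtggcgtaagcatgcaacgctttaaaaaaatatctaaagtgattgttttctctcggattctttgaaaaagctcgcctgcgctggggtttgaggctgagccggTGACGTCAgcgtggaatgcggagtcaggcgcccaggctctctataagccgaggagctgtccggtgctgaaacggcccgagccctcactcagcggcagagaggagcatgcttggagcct
Chgb, chr2:132781392-132781691, plus strand: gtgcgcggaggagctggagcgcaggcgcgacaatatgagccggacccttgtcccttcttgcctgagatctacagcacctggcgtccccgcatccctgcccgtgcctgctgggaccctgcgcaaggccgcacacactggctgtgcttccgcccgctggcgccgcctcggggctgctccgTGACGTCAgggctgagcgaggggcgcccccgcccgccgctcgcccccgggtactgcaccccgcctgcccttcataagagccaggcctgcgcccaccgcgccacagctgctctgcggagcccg
Chga, chr12:102554691-102554990, plus strand: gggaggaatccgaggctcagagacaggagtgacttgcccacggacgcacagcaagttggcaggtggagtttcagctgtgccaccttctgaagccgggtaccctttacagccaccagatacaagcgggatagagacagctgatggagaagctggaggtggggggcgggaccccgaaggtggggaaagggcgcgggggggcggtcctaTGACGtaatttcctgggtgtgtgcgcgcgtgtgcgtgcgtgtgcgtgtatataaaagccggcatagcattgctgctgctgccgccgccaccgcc
Syn1, chrX:20920869-20921168, minus strand: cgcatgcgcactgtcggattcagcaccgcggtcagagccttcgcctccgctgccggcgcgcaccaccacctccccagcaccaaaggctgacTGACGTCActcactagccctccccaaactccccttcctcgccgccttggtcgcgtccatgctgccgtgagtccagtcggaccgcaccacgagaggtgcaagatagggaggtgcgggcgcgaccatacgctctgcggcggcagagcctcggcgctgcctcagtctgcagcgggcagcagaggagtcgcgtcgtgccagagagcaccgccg
Cadps, chr14:12823030-12823329, minus strand: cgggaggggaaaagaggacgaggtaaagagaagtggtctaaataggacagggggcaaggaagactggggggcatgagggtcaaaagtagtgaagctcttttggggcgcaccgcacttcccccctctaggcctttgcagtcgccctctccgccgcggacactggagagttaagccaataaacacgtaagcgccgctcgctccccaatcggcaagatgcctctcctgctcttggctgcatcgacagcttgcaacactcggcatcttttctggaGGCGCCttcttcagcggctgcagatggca
Rab3c, chr13:110280157-110280456, minus strand: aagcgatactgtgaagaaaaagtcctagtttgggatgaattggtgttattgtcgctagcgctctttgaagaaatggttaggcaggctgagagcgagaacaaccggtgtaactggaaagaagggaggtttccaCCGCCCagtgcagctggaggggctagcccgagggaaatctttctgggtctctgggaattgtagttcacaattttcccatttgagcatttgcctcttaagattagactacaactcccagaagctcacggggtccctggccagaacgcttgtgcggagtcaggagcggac
The CRE begins 68 bases before the start of Scg2, 72 before that of Chgb and 159 before that of Syn1, and the core in Chga begins 44 bases before its start. Motifs were searched on both strands in the 33 windows of the members, since some genes have several starts, and in 32851 windows of all genes. The full CRE was in 9.09% of the members' windows and in 1.79% of all windows. The core CGTCA, which the full CRE contains, was in 39.4% and 20.8%, and the GC box GGGCGG in 54.5% and 35.7%. Of the RE1 element, to which REST binds, the left part CAGCACC was in 15.2% and 7.14% of windows and the right part GGACAG in 21.2% and 22.2%. The GC-rich letters GGCGCC, which belong to elements known to bind Smad proteins and were added to the search after values had been seen, were in 21.2% and 11.9%. The 7 genes with these letters are Cadps, Chgb, Cplx1, Dlg4, Homer1, Scg2 and Scg5. Of these, Cplx1, Homer1 and Scg5 neither rose nor fell with BMP2, and Rab3c, which rose, lacks the letters. These matches are letters in a window and say nothing of binding.

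Granule proteins gave the largest change of the set. Scg2 encodes secretogranin II, a granin that is cut into the peptide secretoneurin. Its signal was 24.7 and 22.2 on the 6 h control arrays and 289 and 98.9 on the 6 h BMP2 arrays. After 24 h it lay between 12 and 47.2 on the 6 control arrays (median 22.2) and at 1050 and 779 on the BMP2 arrays. All 4 BMP2 arrays were above all controls of their time, and the controls were too dim for a firm level. On the log2 scale Scg2 rose by 1.89 ± 0.45 (SE) after 6 h (adjusted p = 0.0487) and by 4.04 ± 0.37 after 24 h (adjusted p = 1.6e-06). TSA arrays stayed with the controls, at 31.9 and 21.4 after 6 h and from 14 to 98.1 after 24 h, and the differences of 0.08 (adjusted p = 0.933) and 0.22 (adjusted p = 0.578) did not pass the test. The 6 h call of Scg2 rested on a narrow margin: of 30 alternatives (other normalisations, filters and models, and each array left out) 21 ended it, with adjusted p from 0.0503 to 0.857, the latter without BMP2 6 h replicate 1. The thresholds of fold and difference that the study used are not among the 30. The 24 h call passed under all 30, and against controls 5 and 6 alone the difference was 3.93 (adjusted p = 4.66e-05).

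Chgb encodes chromogranin B, another granin of the core. Its signals were 606 and 532 on the BMP2 arrays of 24 h and from 165 to 354 on the controls (median 266), without overlap. It rose by 1.06 ± 0.31 (adjusted p = 0.0308), and by 1.42 (adjusted p = 0.0188) against controls 5 and 6 alone. The call was lost without BMP2 24 h replicate 1 (adjusted p = 0.238) or replicate 2 (0.138). After 6 h of BMP2 the difference was 0.36 ± 0.38 (adjusted p = 1). TSA gave -0.14 after 6 h (adjusted p = 0.845) and -0.41 after 24 h (adjusted p = 0.217).

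Chga, which encodes chromogranin A, rose with TSA. Its signal was 163 and 135 on the 6 h controls and 428 and 399 on the 6 h TSA arrays. After 24 h the 4 TSA arrays read 680, 275, 320 and 901, each above the highest of the controls (153 to 257, median 234). The rise was 1.31 ± 0.41 after 6 h (adjusted p = 0.03) and by 1.06 ± 0.26 after 24 h (adjusted p = 0.00538). The 24 h TSA arrays spread widely, with an SD of 299 around a mean of 544, yet the call passed under all 30 alternatives. The 6 h call was lost with any 1 of its 4 arrays left out, with adjusted p from 0.0918 without Control 6 h replicate 1 to 0.151 without Control 6 h replicate 2, and with no signal minimum (0.0538). With BMP2 at 24 h Chga was at 395 and 290, above all controls, and its difference of 0.58 ± 0.33 did not pass the test (adjusted p = 0.247; 0.606 against controls 5 and 6 alone). Between the agents at 24 h, TSA minus BMP2, Chga gave 0.48 (95% interval -0.21 to 1.17, adjusted p = 0.292), which did not pass either.

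The remaining granule members moved little. Scg3, a sorting receptor of granins, was at 2440, 2360, 2380 and 2650 on the TSA arrays of 24 h and at 1490 to 2350 on the controls (median 1980), a rise of 0.33 ± 0.11 (adjusted p = 0.0332) with arrays that just did not overlap. That call ended under 10 of 30 alternatives, 6 of which left out 1 array of 24 h (Control replicates 2, 3 or 5, TSA replicates 1, 3 or 4), with adjusted p up to 0.181 under median scaling. With BMP2 at 24 h Scg3 gave -0.38 ± 0.14 (adjusted p = 0.0833; 0.226 against controls 5 and 6 alone). Scg5, the chaperone 7B2 of a prohormone convertase, passed no test, and its largest difference was 0.66 ± 0.31 with BMP2 at 24 h (adjusted p = 0.151), or 0.62 (0.415) against controls 5 and 6 alone.

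Among priming factors, Cadps rose with BMP2 and fell with TSA at 6 h, and rose with BMP2 at 24 h. Cadps encodes CAPS1, which primes dense-core granules and acts with SNARE proteins. Its signals after 6 h were 432 and 400 in controls, 1320 and 1090 with BMP2 and 156 and 160 with TSA. The 3 groups did not overlap. After 24 h the BMP2 arrays were at 2090 and 1790, the controls at 339 to 529 (median 404) and the TSA arrays at 453, 371, 198 and 315. The BMP2 arrays stood apart from all others, and the TSA arrays overlapped the controls. Cadps rose with BMP2 by 1.46 ± 0.27 after 6 h (adjusted p = 0.00737) and by 2.16 ± 0.22 after 24 h (adjusted p = 4.73e-06). It fell with TSA by 1.23 on the log2 scale after 6 h (SE 0.27, adjusted p = 0.00392), and its difference of -0.31 after 24 h did not pass the test (adjusted p = 0.17). The 6 h call with BMP2 was lost without Control 6 h replicate 1 (adjusted p = 0.0638), Control 6 h replicate 2 (0.101) or BMP2 6 h replicate 1 (0.137), and the other calls of Cadps held under all 30 alternatives. Against controls 5 and 6 alone the rise at 24 h was 2.23 (adjusted p = 6.78e-05).

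Unc13a encodes Munc13-1, the priming factor of synaptic vesicles that opens syntaxin. Its signal rose from 56.1 and 58.2 on the 6 h controls to 345 and 240 on the 6 h TSA arrays, by 1.85 ± 0.35 (adjusted p = 0.0018), a call that held under all 30 alternatives. After 24 h of TSA the arrays read 77.9, 46.8, 88.7 and 166 and overlapped the controls, which lay between 34.6 and 108 (median 55.3). The 24 h difference was 0.41 ± 0.23 (adjusted p = 0.176). The effect of TSA was smaller after 24 h than after 6 h by -1.43 ± 0.42 (adjusted p = 0.0431). Among all tested genes 11.6% had a TSA effect that differed between the times, and among the 26 members 2 had, Unc13a and Homer1. The time difference of Unc13a was lost under 18 of 30 alternatives, with adjusted p up to 0.196 without TSA 6 h replicate 1.

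Of the complexins, Cplx2 fell at 6 h and Cplx1 did not pass the test. Cplx2 fell with TSA from 504 and 507 to 228 and 240, by 1.02 on the log2 scale (SE 0.22, adjusted p = 0.00359), and the call held under all 30 alternatives. Cplx1 gave -0.61 ± 0.23 in the same comparison (adjusted p = 0.0699), with both TSA arrays (456 and 415) below both controls (762 and 607). After 24 h of TSA neither passed the test (adjusted p = 0.191 for Cplx2 and 0.937 for Cplx1).

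**Figure D2:**
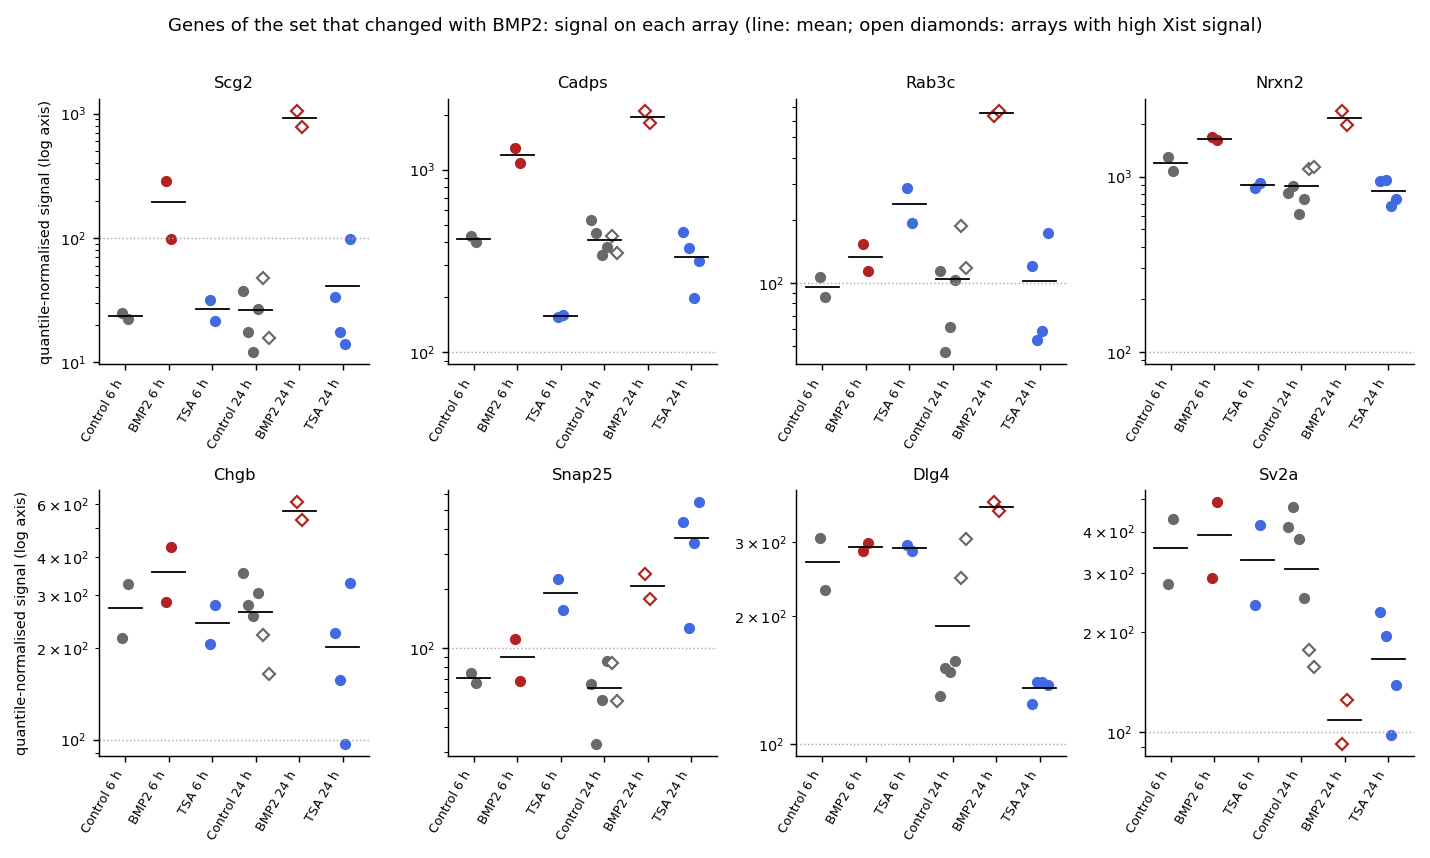
Quantile-normalised signal (vertical log axis) on each of the 18 arrays, by group (horizontal axis), for 8 genes that changed with BMP2. Each point is 1 array, horizontal lines are group means, the dotted line is a signal of 100, and open diamonds are the 4 arrays with a high Xist signal. The BMP2 24 h arrays of Scg2, Cadps, Rab3c, Nrxn2 and Chgb lie above every other array, while for Dlg4 and Sv2a controls 5 and 6 lie on the side of the BMP2 arrays.

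The SNARE genes Snap25 and Stx1a rose, and Vamp2 did not. Snap25, the membrane SNARE that botulinum toxin A cuts, had signals of 238 and 177 with BMP2 at 24 h and 437, 126, 340 and 546 with TSA, all above the controls of 32.9 to 86 (median 60.5). It rose by 1.35 ± 0.36 with BMP2 (adjusted p = 0.0175) and by 1.93 ± 0.28 with TSA (adjusted p = 9.84e-05). The TSA call held under all 30 alternatives. With BMP2 the call was lost without BMP2 24 h replicate 1 (adjusted p = 0.207) or replicate 2 (0.0766), and against controls 5 and 6 alone the difference was 1.25 (adjusted p = 0.106). After 6 h of TSA Snap25 read 225 and 156 against 74.9 and 67.1, a difference of 1.09 ± 0.44 that did not pass (adjusted p = 0.0888).

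Stx1a encodes syntaxin 1A, the partner of Snap25 in the membrane. It rose with TSA at 6 h from 152 and 128 to 348 and 264, by 0.96 ± 0.29 (adjusted p = 0.0241), and its second tested probe set rose by 1.05 ± 0.19 (adjusted p = 0.00106). The call of the brightest probe set was lost without any 1 of the 4 arrays: adjusted p was 0.0739 without Control 6 h replicate 1, 0.14 without Control 6 h replicate 2, 0.169 without TSA 6 h replicate 1 and 0.0554 without TSA 6 h replicate 2. After 24 h the difference was -0.11 ± 0.18 (adjusted p = 0.665), with TSA arrays from 85.8 to 154 among controls from 84.3 to 194. Vamp2, the vesicle SNARE synaptobrevin 2, passed no test with either agent. It fell between the control groups themselves, from 1230 and 1280 at 6 h to 524 to 775 at 24 h, by 0.96 on the log2 scale (SE 0.14, adjusted p = 0.00292). Among all genes 1.82% rose and 2.53% fell between the controls of the times, and Vamp2 was 1 of 26 members. This call was lost without Control 6 h replicate 1 (adjusted p = 0.11) or replicate 2 (0.0726), and with only the groups compared (0.0622).

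The calcium sensor families showed few changes. Syt1, the synaptotagmin of fast release, was at 219 and 193 with BMP2 at 24 h, above the controls of 33.3 to 136 (median 82.8), and the difference of 1.08 ± 0.37 missed the threshold (adjusted p = 0.0581). Against controls 5 and 6, which were the highest of the 6, it was 0.53 (adjusted p = 0.522). Syt11, a synaptotagmin that binds no calcium, fell with TSA at 24 h from controls of 3550 to 4400 (median 3960) to 3010, 3380, 3450 and 2790, without overlap. The fall was small, -0.32 ± 0.1 (adjusted p = 0.016), and 3 of its 4 dimmer probe sets fell too, by -0.38, -0.54 and -0.33. Without TSA 24 h replicate 4 its adjusted p was 0.0608.

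Vesicle membrane and vesicle-bound proteins changed in both directions. Syp, synaptophysin, is the membrane protein most used as a vesicle marker. It rose with TSA at 6 h from 214 and 173 to 416 and 373, by 0.93 ± 0.22 (adjusted p = 0.0071). At 24 h it was at 159, 165, 189 and 303 with TSA and at 200 and 181 with BMP2, all above the controls of 98.6 to 130 (median 108). The rises at 24 h were 0.67 ± 0.14 with TSA (adjusted p = 0.00174) and 0.63 ± 0.18 with BMP2 (adjusted p = 0.0256). The TSA call at 24 h held under all 30 alternatives. The 6 h call was lost without Control 6 h replicate 2 (adjusted p = 0.0755) or TSA 6 h replicate 1 (0.0598), and the BMP2 call without BMP2 24 h replicate 1 (0.23) or replicate 2 (0.115). Against controls 5 and 6 alone the BMP2 difference of Syp was 0.58 (adjusted p = 0.128). The mean of all probe sets of Syp, dim ones included, gave smaller values: 0.24 with BMP2 at 24 h, which did not pass (adjusted p = 0.092), 0.41 with TSA at 6 h (0.0162) and 0.3 with TSA at 24 h (0.00445).

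Synapsins tie vesicles to actin. Syn1 rose with TSA at both times and Syn2 at 24 h, while Syn3, which is outside the set, fell with TSA at 24 h (-1.04 ± 0.13, adjusted p = 2.65e-05). Syn1 was at 491 and 437 with TSA at 6 h against 266 and 272, a rise of 0.72 ± 0.23 (adjusted p = 0.0321). At 24 h its TSA arrays read 388, 217, 341 and 393, just above the controls of 140 to 216 (median 186), a rise of 0.75 ± 0.15 (adjusted p = 0.000979) that held under all 30 alternatives. The 6 h call of Syn1 was lost with any 1 of its 4 arrays left out, with adjusted p from 0.0963 without TSA 6 h replicate 2 to 0.164 without TSA 6 h replicate 1, and with no signal minimum (0.0672). Syn2 rose at 24 h by 0.47 ± 0.14 (adjusted p = 0.016), from controls of 255 to 435 (median 293) to TSA arrays of 551, 356, 383 and 475, which overlapped. That call was lost without TSA 24 h replicate 1 (adjusted p = 0.0647), with only the groups compared (0.0578), and with the mean of all probe sets of Syn2, which gave 0.24 (0.0985). At 6 h the brightest probe set of Syn2 gave -0.03 and a dimmer one rose by 0.68 ± 0.22 (adjusted p = 0.036).

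Sv2a, a vesicle glycoprotein and the target of the drug levetiracetam, was the member that fell with BMP2. Its signals at 24 h were 92.3 and 125 with BMP2, and 157 to 473 in the controls (median 316), a difference of -1.19 ± 0.37 (adjusted p = 0.0405). Controls 5 and 6 had the lowest signals of the 6 controls, 176 and 157, and against them alone the difference was -0.5 (adjusted p = 0.491). The call was also lost without any 1 of Control 24 h replicates 1 to 4 (adjusted p 0.0537 to 0.0703) without BMP2 24 h replicate 1 (0.302) or replicate 2 (0.138), with no signal minimum (0.0566) and with only the groups compared (0.0867). With TSA at 24 h Sv2a gave -0.74 ± 0.3 (adjusted p = 0.0635). Against controls 1 to 4 alone, which like the TSA arrays have a low Xist signal, the TSA difference was -1.08 (adjusted p = 0.00393) and passed.

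Rab3 proteins are the small GTPases of vesicles and granules, and the members of this family differed. Rab3a, the main form of neurons, fell with TSA at 24 h to 626, 813, 555 and 519 from controls of 778 to 1670 (median 1160), by 0.89 on the log2 scale (SE 0.17, adjusted p = 0.000871). Only the lowest control, replicate 6, lay within the range of the TSA arrays. The second probe set of Rab3a fell by 0.93 on the log2 scale (adjusted p = 5.28e-05), and the call of the brightest held under all 30 alternatives. With BMP2 at 24 h Rab3a gave 0.25 ± 0.22 (adjusted p = 0.459), and 0.62 (adjusted p = 0.0824) against controls 5 and 6 alone.

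Rab3c rose with BMP2 at 24 h to 635 and 669, from controls of 46.6 to 187 (median 109), by 2.4 ± 0.35 (adjusted p = 2e-04). The call held under all 30 alternatives, and against controls 5 and 6, which were the highest of the controls, the difference was 1.92 (adjusted p = 0.00433). With TSA the brightest probe set gave 1.07 ± 0.43 at 6 h (adjusted p = 0.0871) and -0.05 ± 0.28 at 24 h (adjusted p = 0.903). The other probe sets of Rab3c gave a different picture with TSA. Probe set 1432415_at was at 62.1, 56.5, 154 and 331 on the TSA arrays of 24 h and at 7.15 to 47 on the controls, without overlap. It rose with TSA by 1.52 ± 0.33 (adjusted p = 0.00218), and with BMP2 its difference of 0.64 ± 0.42 did not pass (adjusted p = 0.308). Probe set 1432432_a_at rose with both agents at 24 h, by 1.13 ± 0.35 with TSA (adjusted p = 0.0203) and by 1.69 ± 0.44 with BMP2 (adjusted p = 0.0155). Probe set 1449494_at rose with BMP2 by 1.79 ± 0.41 (adjusted p = 0.00746), and with TSA it gave 0.75 ± 0.33 (adjusted p = 0.0885). These 3 dimmer probe sets gave BMP2 differences against controls 5 and 6 alone of 0.14 (1432415_at, adjusted p = 0.936), 0.92 (1432432_a_at, 0.239) and 1.16 (1449494_at, 0.125), and none passed. Whether a rise with TSA at 24 h was found thus depended on the probe set. The mean of all probe sets of Rab3c was higher with TSA at 24 h by 0.67 (adjusted p = 0.0357). With BMP2 at 24 h that mean was higher by 1.31 (adjusted p = 0.00675). Where in the transcripts these probe sets lie was not analysed here.

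**Figure D3:**
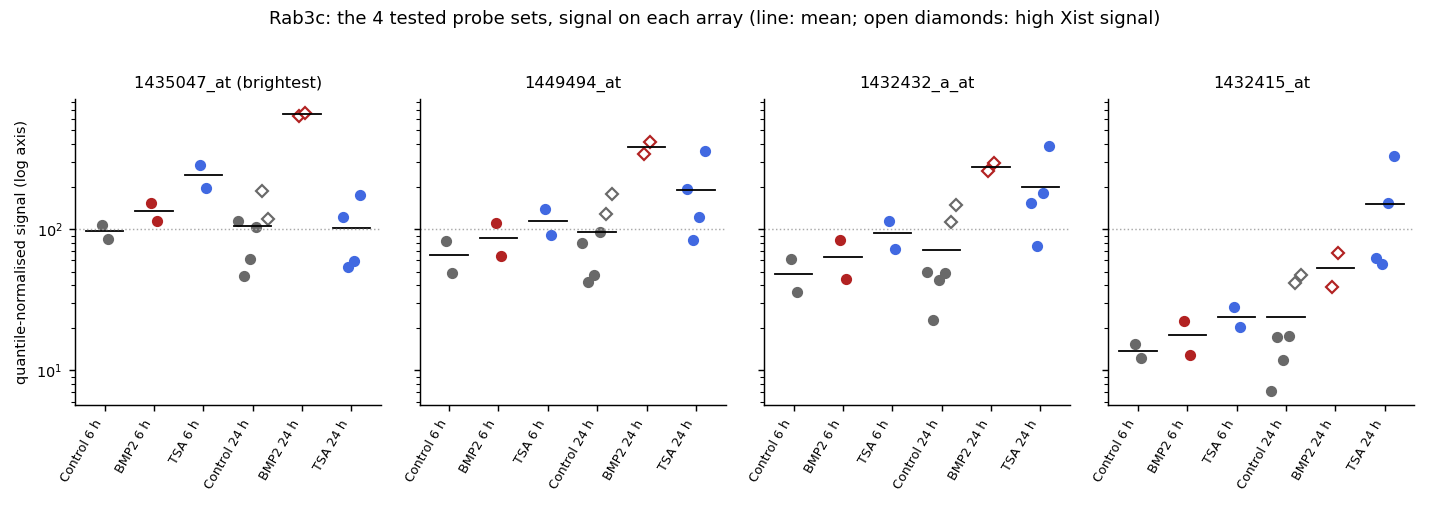
Signal on each array (vertical log axis, shared) by group (horizontal axis) for the 4 tested probe sets of Rab3c. Points are arrays, lines are group means, the dotted line is a signal of 100, and open diamonds are arrays with a high Xist signal. The BMP2 24 h mean is the highest in the first 3 panels (652, 378 and 274), and in the panel of 1432415_at the TSA 24 h mean is (151).

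Both tested members of the active zone and of presynaptic adhesion rose with BMP2 at 24 h. Pclo encodes piccolo, a scaffold of the active zone, and Nrxn2 encodes neurexin 2, a presynaptic adhesion protein. Nrxn2 was at 2360 and 1970 with BMP2 at 24 h, above the controls of 614 to 1140 (median 846), and rose by 1.29 ± 0.2 (adjusted p = 0.00028). The call held under all 30 alternatives, and against controls 5 and 6 the difference was 0.92 (adjusted p = 0.00348). A dimmer probe set of Nrxn2, 1455499_at, gave -0.09 ± 0.3 (adjusted p = 0.87), with group means of 34.8 and 43, and the mean of all probe sets of Nrxn2 was 0.6 higher (adjusted p = 0.00208). Pclo was at 221 and 217 with BMP2, just above the highest control (59.8 to 191, median 96.9), and rose by 0.91 ± 0.27 (adjusted p = 0.0296). Against controls 5 and 6 alone its difference was 0.39 (adjusted p = 0.407), and its call was lost without BMP2 24 h replicate 1 (0.196), BMP2 24 h replicate 2 (0.168), Control 24 h replicate 2 (0.0528) or Control 24 h replicate 4 (0.0534). The call of Pclo was also lost with only the groups compared (0.107) and with the mean of all its probe sets, which gave 0.28 (0.216). Slc32a1, the vesicular transporter of GABA and glycine, passed no test, with differences of -0.2 to 0.14 in the 4 comparisons.

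The postsynaptic scaffolds did not move together. Dlg4 encodes PSD-95, and rose with BMP2 at 24 h to 372 and 355 by 0.89 ± 0.22 (adjusted p = 0.011), from controls of 130 to 305 (median 154). Controls 5 and 6 (246 and 305) were the highest, and against them alone the difference was 0.37 (adjusted p = 0.133). Without BMP2 24 h replicate 1 or replicate 2 the adjusted p of Dlg4 was 0.122 or 0.0868, and with only the groups compared it was 0.0768. The mean of all probe sets of Dlg4 gave 0.51 (adjusted p = 0.0125). Homer1, which links glutamate receptors to calcium stores, changed in opposite directions with time under TSA. It rose at 6 h from 333 and 296 to 541 and 503, by 0.68 ± 0.19 (adjusted p = 0.0175), and fell at 24 h from controls of 370 to 482 (median 410) to 190, 203, 228 and 312, by 0.77 on the log2 scale (SE 0.12, adjusted p = 0.000181). The arrays did not overlap at either time. The difference between the effects was -1.45 ± 0.23 (adjusted p = 0.00196) and held under all 30 alternatives, as did the fall at 24 h. The rise at 6 h was lost with any 1 of its 4 arrays left out, with adjusted p from 0.0562 without Control 6 h replicate 1 to 0.121 without Control 6 h replicate 2. Of its dimmer tested probe sets, 1439662_at rose by 0.7 ± 0.2 at 6 h (adjusted p = 0.0173), 1436387_at gave -0.09 ± 0.22 (adjusted p = 0.83), and both fell at 24 h, by -0.56 and -0.42. The mean of all probe sets of Homer1 gave 0.32 at 6 h, which did not pass (adjusted p = 0.0993), -0.42 at 24 h (0.0016), and a difference between the times of -0.74 (0.0099).

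Gap43, a protein of growth cones, passed no test. Its arrays with BMP2 at 24 h read 774 and 1160, above the controls of 370 to 696 (median 576), with a difference of 0.77 ± 0.33 (adjusted p = 0.122), and of 0.49 (adjusted p = 0.564) against controls 5 and 6 alone.

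**Figure D4:**
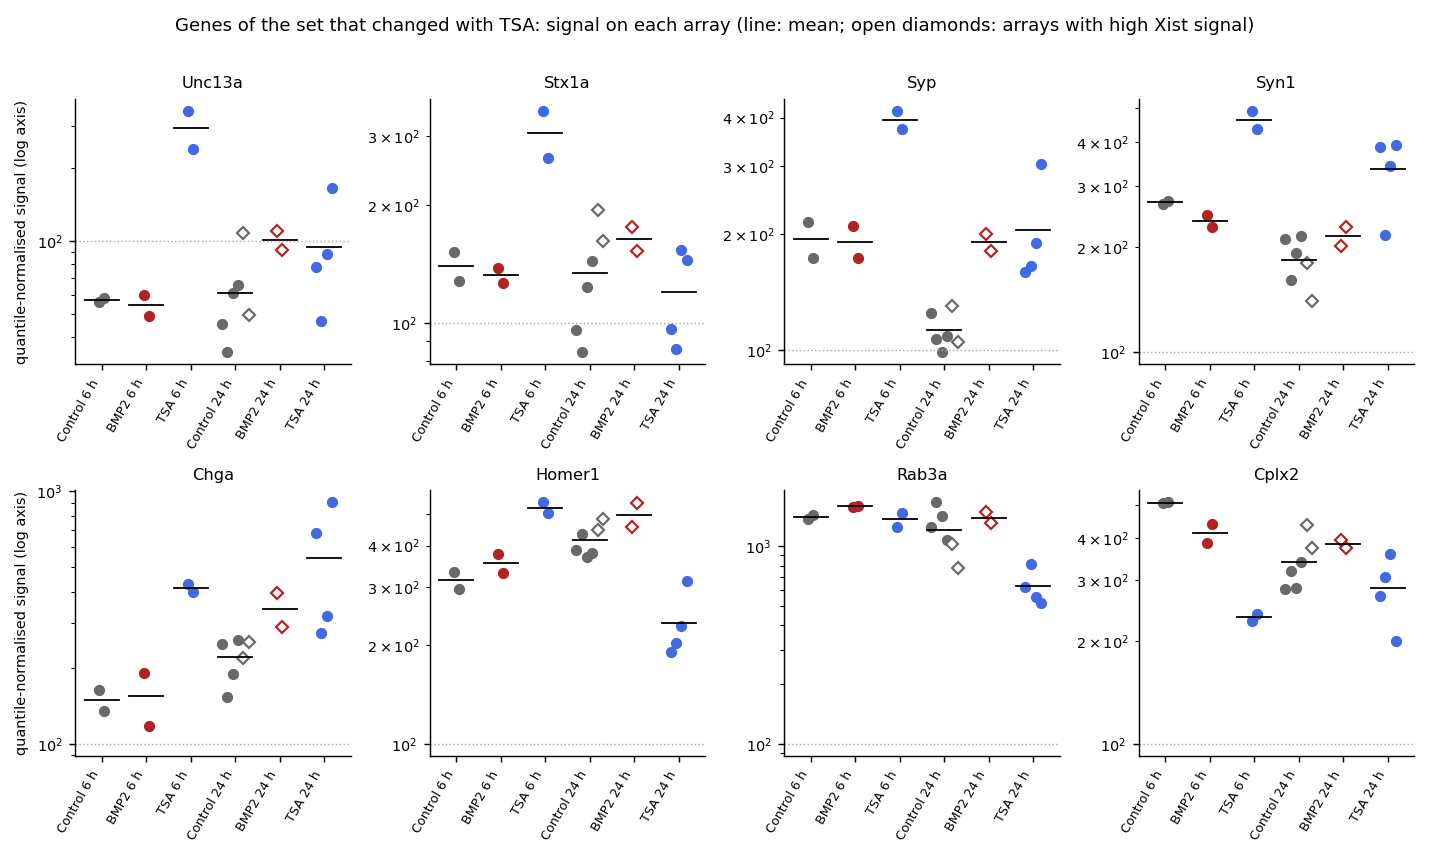
Quantile-normalised signal (vertical log axis) on each of the 18 arrays, by group (horizontal axis), for 8 genes that changed with TSA. Each point is 1 array, horizontal lines are group means, the dotted line is a signal of 100, and open diamonds are the 4 arrays with a high Xist signal. Unc13a and Stx1a are highest after 6 h of TSA (means of 293 and 306), Syp, Syn1 and Chga lie above the controls at both times, and Homer1 lies above its controls at 6 h and below them at 24 h.

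Equal replicate numbers paired the TSA and control arrays of 24 h. With that number as a block in the model, in which TSA arrays are set against controls 1 to 4, 14 of the 26 genes passed with TSA at 24 h, 8 higher and 6 lower, in place of 9. These are 30.8% and 23.1% of the members, beside 24.8% higher and 24.8% lower of all genes in the same model. The 9 genes all passed there too. Added were Unc13a (0.53, adjusted p = 0.00916) and Pclo (0.51, adjusted p = 0.00994) as higher, and Cadps (-0.35, adjusted p = 0.0127), Sv2a (-1.08, adjusted p = 0.000208) and Chgb (-0.59, adjusted p = 0.0123) as lower. The fit with the Xist term also sets TSA arrays of 24 h against controls 1 to 4, and there 10 of the 26 passed. The share of all genes was not counted in that fit. Pclo (0.51, adjusted p = 0.0319) and Sv2a (-1.08, adjusted p = 0.00393) were added, and Scg3 (0.33, adjusted p = 0.052) was lost.

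The agents were also compared directly, arrays of TSA against arrays of BMP2 at the same time. At 6 h, 5 of 26 members were higher with TSA and 4 lower, beside 15.5% and 12.5% of all genes. Higher were Unc13a by 1.89 ± 0.35 (adjusted p = 0.00126), Chga by 1.28, Stx1a by 1.03, Syp by 0.94 and Syn1 by 0.88. Lower were Cadps by -2.7 ± 0.27 (adjusted p = 7.34e-06), Scg2 by -1.81, Nrxn2 by -0.85 and Cplx2 by -0.74. Leaving out 1 array took this count to between 3 and 10, the lowest without BMP2 6 h replicate 2 or TSA 6 h replicate 1. The differences of Unc13a and Cadps held under all 30 alternatives.

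At 24 h, 2 of 26 were higher with TSA than with BMP2 and 9 lower, beside 17.2% and 21.2% of all genes. The median difference of the 26 genes was -0.38, and that of all genes -0.06. Lowest with TSA relative to BMP2 were Scg2 by -3.82 ± 0.39 (adjusted p = 4.64e-06), Cadps by -2.48 ± 0.23 (adjusted p = 2.15e-06), Rab3c by -2.45 ± 0.37 (adjusted p = 0.000166) and Chgb by -1.46 ± 0.33 (adjusted p = 0.00329). The value of Rab3c is that of its brightest probe set. The mean of all its probe sets gave -0.63 (adjusted p = 0.128), which did not pass, and its other 3 tested probe sets gave 0.88, -0.57 and -1.04, of which none passed. Nrxn2, Dlg4, Rab3a, Homer1 and Syt11 were lower by -1.36, -1.24, -1.13, -1.01 and -0.34. With the mean of all probe sets these differences were -0.45 for Nrxn2, -0.63 for Dlg4 and -0.41 for Homer1, which passed, and -0.12 for Syt11 (adjusted p = 0.565), which did not. Scg3 (0.7 ± 0.15, adjusted p = 0.00225) and Syn1 (0.54 ± 0.2, adjusted p = 0.0396) were higher. Snap25 and Syp, which rose with both agents, gave 0.58 (95% interval -0.17 to 1.33) and 0.05 (-0.33 to 0.42). The high Xist signal is on the BMP2 side of this comparison alone, and with a term for it Dlg4 (adjusted p = 0.0972), Syt11 (0.466) and Syn1 (0.533) no longer passed, while Nrxn2 gave -0.81 (0.0255). The calls of Syt11 and Syn1 in this comparison were weak. That of Syt11 was lost under 16 of 30 alternatives, among them without BMP2 24 h replicate 2 (-0.1, adjusted p = 0.627), and that of Syn1 under 13 of 30, among them without BMP2 24 h replicate 1 (0.222). Of the BMP2 effects, 0 of 26 differed between 24 h and 6 h in limma, where 0.766% of all genes did, and 7 of the 26 had an unadjusted p under 0.05.

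**Figure D5:**
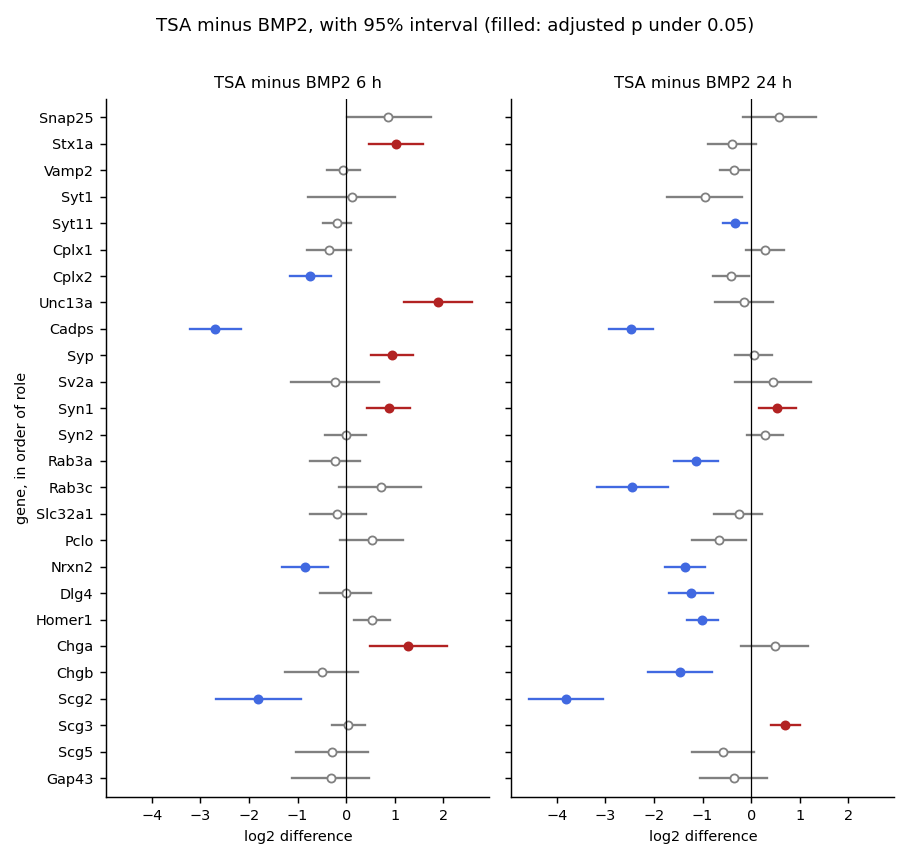
Log2 difference of TSA minus BMP2 (horizontal axis) for the 26 tested genes in order of role (vertical axis), after 6 h (left) and 24 h (right), with 95% intervals. Filled symbols have an adjusted p under 0.05, red where TSA is higher and blue where it is lower. At 24 h 9 genes lie left of 0 with filled symbols and 2 lie right of it.

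Markers of cell types moved beside these genes. The summed signal of the 15 neuronal markers was 8730 to 13400 in the 24 h controls, 11600 to 12600 with BMP2 and 6210 to 7440 with TSA. At 6 h it was 12700 to 14300 in controls, 10400 to 11300 with BMP2 and 8940 to 10100 with TSA. None of the 15 is under 100 in every group. With BMP2 at 24 h 3 of them rose and 0 fell, led by Celf4 (1.77 ± 0.25) and Tubb3 (1.48 ± 0.43), of which Celf4 (1.77) and not Tubb3 (0.72, adjusted p = 0.381) passed against controls 5 and 6 alone, and with TSA 1 rose, Stmn2 (1.61 ± 0.42), and 6 fell, led by Dcx (-2.83 ± 0.25) and Ina (-1.59 ± 0.25). Against controls 5 and 6 alone 1 of the 15 rose and 1 fell with BMP2. The median of the 15 neuronal markers with BMP2 at 24 h was -0.08 against all controls and -0.23 against controls 5 and 6 alone. With TSA at 24 h it was -0.44. Among all genes 9.93% rose and 7.72% fell with BMP2 at 24 h against all controls, and 18.6% and 20.1% with TSA. The neuroendocrine markers, 5 of 7 with a probe set and 2 of these under 100 throughout, summed to 623 to 1520 in the 24 h controls, 1290 to 1520 with BMP2 and 310 to 485 with TSA. Insm1, a factor of neuroendocrine precursors, rose with BMP2 by 1.33 ± 0.32 (adjusted p = 0.00926; 0.036 against controls 5 and 6 alone), and Ddc, which makes dopamine and serotonin, fell with TSA by 2.29 on the log2 scale (SE 0.37, adjusted p = 0.000209). Oligodendrocyte lineage markers summed to 38500 to 56900 in the 24 h controls, 14900 to 15200 with BMP2 and 17800 to 29300 with TSA. The 10 astrocyte markers summed to 24100 to 34200 in the 24 h controls, 18200 to 21400 with BMP2 and 25400 to 33600 with TSA, and 5 of them fell with BMP2 at 24 h (median of the list -0.75) and 3 with TSA (median 0.01). Gfap had mean signals of 1680 in the 24 h controls, 547 with BMP2 and 3970 with TSA, and 0 of the 10 passed as higher with either agent. S100b fell with both agents, by -1.67 ± 0.36 and -2.46 ± 0.28. Against controls 5 and 6 alone its BMP2 difference was -1.55 (adjusted p = 0.038), and 3 of the 10 astrocyte markers fell. The part of these markers in the changes of the vesicle and granule genes was not tested.

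Further genes of the same machinery were counted from lists made by function, with earlier results of these data known. Beside the counts of these 4 lists against all controls stand the shares of all genes. Counts against controls 5 and 6 alone have no such share. With BMP2 at 24 h 9.93% rose and 7.72% fell, and with TSA at 24 h 18.6% rose and 20.1% fell. Of 39 tested genes of vesicle fusion outside the set, 6 rose and 6 fell with BMP2 at 24 h, and 9 rose and 9 fell with TSA, with medians of 0.02 and -0.02. The synaptotagmins Syt7 (2.3 ± 0.57, adjusted p = 0.0107) and Syt9 (1.69 ± 0.17, adjusted p = 5.91e-06) rose most with BMP2, and Bin1 (-1.34 ± 0.21) and Syt16 (-0.98 ± 0.16) fell most. In the comparison with controls 5 and 6 alone 3 of the 39 rose and 4 fell, and Syt9 (1.66), Bin1 (-1.3) and Syt16 (-1.01) passed while Syt7 (1.27, adjusted p = 0.181) did not. The other Rab3 genes led with TSA: Rab3b rose by 2.64 ± 0.27 (adjusted p = 3.6e-06) and Rab3d by 1.31 ± 0.13 (adjusted p = 2.59e-06). Mean signals of Rab3b were 45.3 in the 24 h controls, 98.7 with BMP2 and 505 with TSA. Bin1 (-1.55 ± 0.16) and the synapsin Syn3 (-1.04 ± 0.13) fell most with TSA.

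Of 10 tested granule genes outside the set, 3 rose and 1 fell with BMP2 at 24 h, and 5 rose and 2 fell with TSA, with medians of 0.07 and 0.33. Pcsk1n, the inhibitor proSAAS of a prohormone convertase, rose with BMP2 by 1.58 ± 0.21 (adjusted p = 7e-05), and Pam, the enzyme that amidates peptides, by 0.56 ± 0.16. With controls 5 and 6 alone as controls 1 of the 10 rose, Pcsk1n (1.28, adjusted p = 0.00133), 1 fell, Ica1 (-1.41), and Pam gave 0.48 (adjusted p = 0.17). Vgf, a granin-like peptide precursor, rose with TSA by 1.61 ± 0.29 (adjusted p = 0.000586), from a mean of 14.3 to 127, and Ptprn, a membrane protein of granules, by 0.96 ± 0.22. Ica1 fell with both, by -1.19 ± 0.17 and -0.63 ± 0.14, and the peptide gene Sst fell with TSA by 0.69 on the log2 scale.

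Of 16 tested genes of the active zone and of synaptic adhesion, 3 rose and 2 fell with BMP2 at 24 h, and 2 rose and 9 fell with TSA, with medians of -0.09 and -0.46. The liprin Ppfia2 (1.5 ± 0.17) and the active zone scaffold Erc2 (1 ± 0.18) rose most with BMP2, and Lrrtm1 (-1.4 ± 0.2) and Cask (-0.7 ± 0.19) fell most. All 4 passed against controls 5 and 6 alone, where 3 of the 16 rose and 3 fell. With TSA Erc1 (0.67 ± 0.14) and Rims3 (0.52 ± 0.17) rose, and the adhesion genes Lrrtm2 (-1.93 ± 0.21) and Lrrtm1 (-1.72 ± 0.16) fell most. Of 9 tested postsynaptic scaffold genes, 1 rose with BMP2, Homer3 (0.42 ± 0.13, adjusted p = 0.117 against controls 5 and 6 alone), and 2 fell with TSA, Dlgap1 (-0.87 ± 0.23) and Homer3 (-0.45 ± 0.1). After 6 h of BMP2 0 of the 74 tested genes of these 4 lists passed the test in limma and 7 had an unadjusted p under 0.05, and after 6 h of TSA 7 rose and 12 fell over the 4 lists. Among all genes 1.15% rose and 0.634% fell after 6 h of BMP2, and 14.4% and 11.8% after 6 h of TSA.

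The repressor REST and its corepressors were examined because many vesicle genes are their targets. Of the 9 tested genes of this list, 0 rose and 1 fell with BMP2 at 24 h, and 1 rose and 3 fell with TSA. Among all genes 9.93% rose and 7.72% fell with BMP2 at 24 h, and 18.6% and 20.1% with TSA. Rcor2, a corepressor of REST, fell with both, by -0.67 ± 0.14 with BMP2 (adjusted p = 0.00375, and 0.00101 against controls 5 and 6 alone) and by -0.48 ± 0.11 with TSA (adjusted p = 0.00387). Sin3a rose with TSA by 0.31 ± 0.1 and Rcor3 fell by 0.43 on the log2 scale. Rest itself had mean signals of 251 in the 24 h controls, 457 with BMP2 and 200 with TSA, and neither difference passed the test (adjusted p = 0.08 and 0.664). The BMP2 difference of Rest against controls 5 and 6 alone was 0.11 (adjusted p = 0.877).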

How the data were processed

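RNA was measured on 18 Affymetrix arrays. The authors deposited linear signal intensities for each probe set. Their processing notes name MAS5 without a version, and the paper names dChip and quantile normalisation for them. The deposited array medians lie between 35.4 and 41.6, and the number of arrays limits the precision. The treatment is said to begin after a medium change in the labels and 1.5 days after plating in the paper. Symbols come from the array annotation: 34958 of 45101 probe sets had 1 gene, and the 932 with several and 9211 with none were not named.

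Signals were quantile-normalised and log2(signal + 32) was used. Tested were the 19498 probe sets whose brightest group averaged 100 or more (10576 genes, each by its brightest probe set), in 1 limma model of the 6 groups (limma 3.58.1, eBayes with trend, R 4.3.3), adjusted after Benjamini and Hochberg at 0.05. The steps were tested on simulated data. The members and lists were chosen with earlier results of these data known. Named are all members and, of the other lists, at most the 2 largest rises and falls at 24 h. Rest, Gfap and the dimmer probe sets were named after their values were seen. The check of pairing used residuals around group means: same-numbered TSA and control arrays at 24 h correlated at 0.32 to 0.58 in 4 of 4 pairs, and BMP2 with control arrays of 24 h at -0.13 to 0. At 6 h there are 2 pairs in each case, at 0.56 to 0.7, too few to decide. Alternatives were the deposited signals, median scaling, pseudocounts of 16 and 64, signal minimums of 50 and 200 or none, no trend, a replicate block, a term for Xist, the mean of all probe sets, only the groups compared, the thresholds of the study and each array left out, where a lone array is assumed to vary like the other groups. As the thresholds of the study, a fold over 2 and a difference over 100 were used. Its 90% confidence was replaced by an unadjusted limma p under 0.1. The supplementary results, RT-PCR and protein data were not analysed here.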

Additional observations from a re-analysis of the deposited data

Results flagged for a closer look

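The effect of TSA differed between the times for Unc13a, by -1.43 on the log2 scale (adjusted p = 0.0431, limma), and for Homer1, by -1.45 (adjusted p = 0.00196), as differences of the 24 h effect from the 6 h effect. Within the groups of 4 or 6 arrays, 1 of 52 examined sets of values had an array far from the others: TSA 24 h replicate 1 of Dlg4 (124, beside 138 to 140), whose gap was 0.864 of the range of the group. Chance gives about 1 such case in 20.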

How the results depend on the processing

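Of the 29 calls of members in the 4 comparisons with controls, 18 held under each of the 12 alternatives that kept all arrays and gave a p for each gene, and 13 also with any 1 array left out. These 13 are Scg2, Cadps, Rab3c and Nrxn2 with BMP2 at 24 h, Cplx2, Unc13a and Cadps with TSA at 6 h, and Snap25, Syp, Syn1, Rab3a, Homer1 and Chga with TSA at 24 h. The thresholds of the study, with a limma p in place of its confidence, kept 18 of the 29 calls. They kept 9 of these 13, without Syp, Syn1, Rab3a and Homer1 at 24 h. Numbers of members called with BMP2 at 6 h fell from 2 to 1 with the deposited signals, median scaling, a pseudocount of 16, a signal minimum of 200 or none, no trend, and only the groups compared. The TSA effect differed between the times for 1 member in place of 2 with the deposited signals, a pseudocount of 16, no signal minimum or only the groups compared, and for 4 with the mean of all probe sets. The BMP2 effect did so for 1 in place of 0 with a pseudocount of 64. Between the control groups the count was 2 in place of 1 with median scaling or no trend, 5 with the Xist term, 3 with the mean of all probe sets, and 0 with only the groups compared or the thresholds of the study. The Xist term left 5 of 10 with BMP2 at 24 h, only the groups compared gave 14 in place of 9 for TSA against BMP2 at 6 h, and the thresholds of the study gave 2 in place of 9 with TSA at 24 h. With the replicate block the counts were 19 with BMP2 at 24 h and 14 with TSA at 24 h. They were 17 for TSA against BMP2 at 24 h and 10 for the time difference of either agent. The block model also gave 7 between the control groups, a count from which nothing is concluded. Its blocks lie within 1 time, so it cannot compare the control levels of the times. For Scg5 it gave 1.18 on the log2 scale, where the control means were 332 at 6 h and 475 at 24 h. Only TSA and control arrays of 24 h were paired by the check. The block leaves controls 5 and 6 alone, so the BMP2 arrays of 24 h, high in Xist, are set against arrays low in Xist only. In its counts with BMP2 at 24 h the agent and this split cannot be told apart. The mean of all probe sets moved Rab3c with TSA at 24 h from -0.05, which did not pass, to 0.67. With 1 array left out the counts ran from 0 to 2 with BMP2 at 6 h, 4 to 11 with BMP2 at 24 h, 3 to 9 with TSA at 6 h, 8 to 10 with TSA at 24 h, 3 to 10 and 9 to 12 for TSA against BMP2 at 6 h and 24 h, 1 to 4 for the time difference of TSA, 0 for that of BMP2, and 0 to 2 between the control groups. The cause of these changes was not tested. Signals near the minimum of 100, and 2 arrays in 4 of 6 groups, limit what can be detected.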
